A study of Homo sapiens with 38 samples.

Results

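The direct comparison of 2 histone deacetylase inhibitors, pracinostat and vorinostat, was made in the 5 human lymphoma lines that have a 6 h library of each: OCILY1, PFEIFFER, SUDHL4, TOLEDO and WSUDLCL2. These 10 libraries, 5 per drug, were chosen by drug, time and line from 38 listed samples, of which 37 have a column in the deposited tables. The study profiled RNA from 6 established lines of diffuse large B-cell lymphoma, a tumour of mature B cells, treated for 6 h or 14 days with either drug, or with DMSO, in which the drugs are dissolved. The sixth line, SUDHL6, has DMSO and pracinostat at 6 h but no vorinostat library. It is used below only to pick genes and in an alternative fit of all 17 libraries of 6 h. Replicates are the lines themselves, since each of the 5 lines gave 1 library for each drug at 6 h. Whether its libraries were grown as separate cultures is not stated. No dose is named in the labels used here, so a difference between the drugs and a difference between their doses cannot be told apart. In the deposited column names, every 6 h vorinostat library of these lines is numbered ahead of every 6 h pracinostat library. What the numbers stand for is not stated, so the drug and this order cannot be told apart either. The comparison asks whether cells of the same line, after the same 6 h, held different RNA levels with either drug, in a study whose title concerns the sensitivity of these lymphomas to such inhibitors.

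Histone deacetylases (HDACs) take acetyl groups off lysines of histones and other proteins, and they act on chromatin as part of corepressor complexes. Inhibitors that bind the zinc ion in their active site raise histone acetylation within hours and shift the transcription of many genes in both directions. Vorinostat and pracinostat both carry a hydroxamic acid as the group that binds zinc. In vorinostat a straight carbon chain links it to an anilide, whereas in pracinostat a vinyl group links it to a substituted benzimidazole. In B-cell lymphoma the enzymes that place and remove histone acetylation are of interest because the acetyltransferase genes CREBBP and EP300 are often mutated there.

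The 10 libraries held 5.00 to 8.36 M counts (M, mega counts), at most 5.96 M in a pracinostat library and at least 5.19 M in a vorinostat library. Levels are given as CPM, that is counts divided by the scaled size of their library, and a count of 0 allows up to 3 counts, or 0.339 to 0.657 CPM over the 10 libraries, which covers counting error only. B-cell markers were present in all 10 libraries: the lowest level of MS4A1 was 363 CPM, of CD79A 47.3 CPM and of PAX5 125 CPM. The 4 myeloid markers in the table summed to at most 3.45 CPM, while 8 T and NK cell markers ranged from 2.49 to 517 CPM with pracinostat and from 2.80 to 501 CPM with vorinostat, led by CD8A. The 6 stromal, epithelial and erythroid markers summed to 5.69 to 240 CPM with pracinostat and 4.77 to 244 CPM with vorinostat, led by EPCAM. WSUDLCL2 stood apart in the drug difference. Across 10488 genes with a mean of at least 5 CPM, the standard deviation (SD) of the log2 difference between the drugs was 0.61 in WSUDLCL2 and 0.31 to 0.39 in the other 4 lines. The difference in WSUDLCL2 followed the GC content of the transcripts, with a Spearman correlation of -0.50 across 10464 genes, against 0.33 in PFEIFFER and -0.08 to 0.06 in the other 3 lines. These correlations are descriptions across genes that share a pair of libraries. Against DMSO, the correlation in WSUDLCL2 was -0.29 with pracinostat and 0.10 with vorinostat. In the other 4 lines it ran from -0.265 in SUDHL4 to 0.19 in TOLEDO with pracinostat, and from -0.20 to 0.15 in the same lines with vorinostat. Below, counts of called genes, medians of gene lists and named genes called in either way are therefore given also without WSUDLCL2 and with each library's GC trend taken out, the 20 leading genes partly as ranges. That trend was fitted to each library's deviation from the mean of its line's pair of libraries. Taking it out removes the GC trend of the drug difference within each line, whatever its source. By construction this makes the lines more alike, so a rise in called genes may follow in part from the step itself. The GC step was added after the pattern had been seen in these same libraries, and the part of GC content in the drug difference was not tested.

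**Figure D1:**
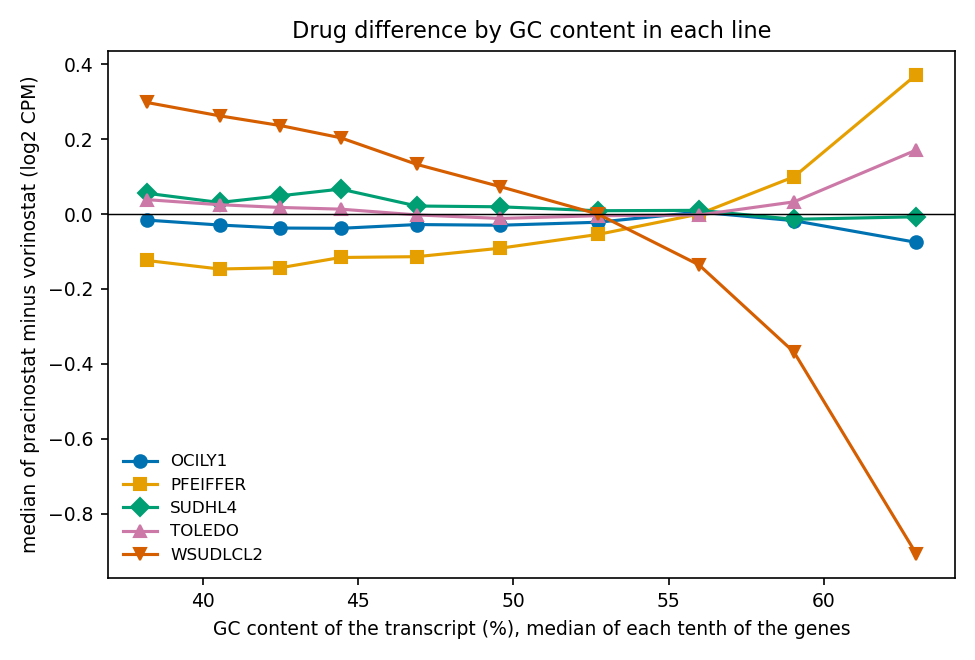
Median log2 difference, pracinostat minus vorinostat, in each of 10 bins of genes ordered by transcript GC content (x axis, percent), with a line for each of the 5 cell lines. WSUDLCL2 runs downward with GC content, PFEIFFER upward at high GC content, and OCILY1 and SUDHL4 stay close to 0.

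No gene passed the test between the drugs. With edgeR's quasi-likelihood test, the cell line as block and Benjamini-Hochberg adjustment, 0 of 12039 genes (0%) had an adjusted p under 0.05, and the smallest was 0.0994. At an unadjusted p under 0.05 there were 789 genes higher with pracinostat, or 6.55%, and 778 lower, or 6.46%. Other tools gave 0 genes (limma voom) and 42 (DESeq2, 3 higher and 39 lower, with 5135 genes given no adjusted p). Without WSUDLCL2 the same edgeR test called 85 of 12414 genes, 20 higher (0.161%) and 65 lower (0.524%). With the GC trend taken out of all 10 libraries it called 100 of 12039 genes, 21 higher (0.174%) and 79 lower (0.656%), and 54 genes were called both ways. Leaving out any other line without the GC step called 0 genes. With the GC step, the count was 13 without OCILY1, 193 without PFEIFFER, 7 without SUDHL4, 6 without TOLEDO and 178 without WSUDLCL2.

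The fitted differences were small. Their median was 0.02 on the log2 scale, with quartiles of -0.13 and 0.16. Only 22 of the 12039 genes had a fitted difference of 2-fold or more, and 420 one of 1.5-fold or more. The 95% interval of the difference lay inside 2-fold for 11070 genes, or 92% of those tested, and inside 1.5-fold for 7609, or 63.2%. Among 6037 genes with a mean level of at least 5 log2 CPM these shares were 99.6% and 89%. For comparison, pracinostat against DMSO in the same lines called 4654 of 12904 genes (36.1%), 2477 higher and 2177 lower. Vorinostat against the same DMSO libraries called 5626 (43.6%), 2948 higher and 2678 lower. Column names of the deposited normalized values call this 6 h control DMSOV in OCILY1, SUDHL4 and WSUDLCL2, and DMSOP in PFEIFFER and TOLEDO. They number the control of PFEIFFER among the pracinostat libraries and those of the other lines among the vorinostat libraries. The sample titles give DMSO alone, and whether the solvent cultures differed is not stated. The DMSO library of SUDHL4 was the smallest of them, with 3.29 M counts. Fitted changes of 2-fold or more against DMSO numbered 1727 with pracinostat and 2242 with vorinostat, and the SD of the fitted log2 changes was 0.74 and 0.81. A p that misses the threshold does not show that the drugs act alike. The intervals above state, gene by gene, how far apart the drugs could be on average over the lines. They do not bound the difference within a single line.

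**Figure D2:**
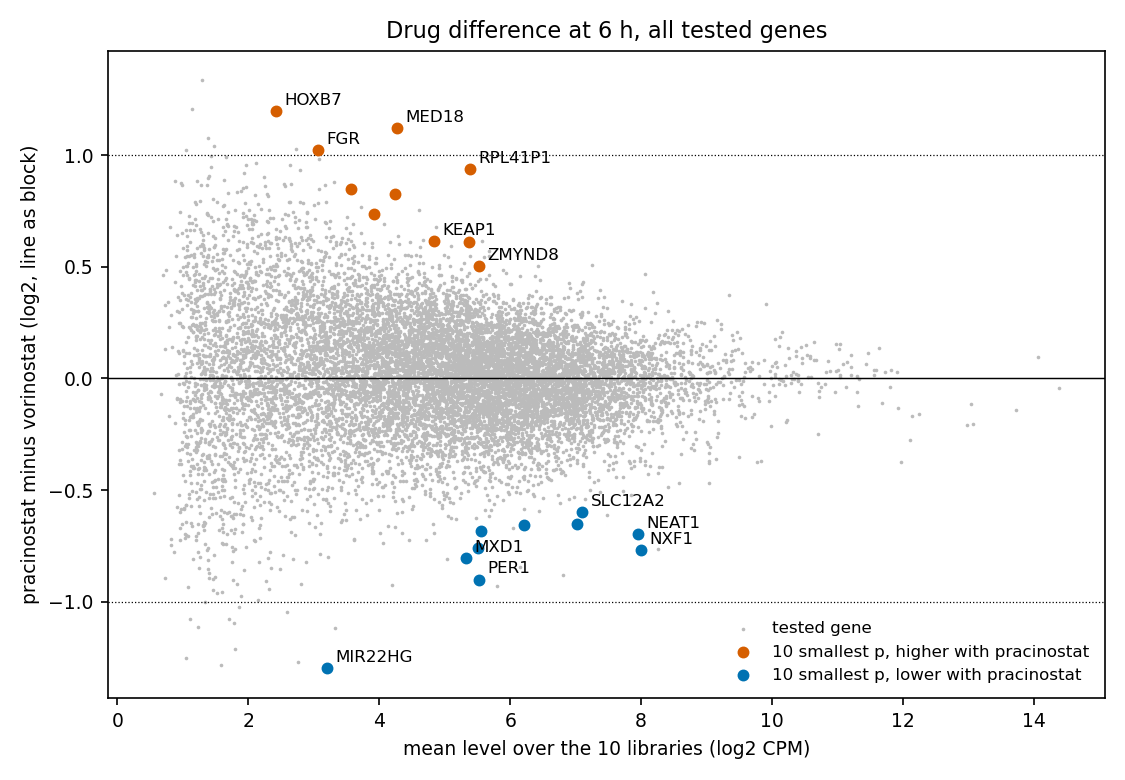
Fitted log2 difference, pracinostat minus vorinostat, against mean level (log2 CPM) for each of the 12039 tested genes (grey), with the 10 smallest p-values in each direction in colour and dotted lines at 2-fold. Most genes lie within 2-fold, and the coloured genes reach from -1.30 to 1.20.

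The 10 genes with the smallest p in each direction are described next, none of them called over all 10 libraries. All 10 of the lower genes had the same sign in every line, and so did 9 of the 10 higher genes. Of these 20, 17 were called without WSUDLCL2, 20 with the GC trend taken out, and 12 by DESeq2, which all use the libraries that chose them. DESeq2 gave no adjusted p to MED18, ZNF678, HOXB7, ASB2, FGR, ZNF302 and MIR22HG, so it could not call these genes. Without WSUDLCL2 the differences ran from -1.39 to -0.55 for the 10 lower genes and from 0.45 to 1.25 for the 9 higher genes tested, with edgeR adjusted p-values of 0.00291 to 0.0692. With the GC trend taken out they ran from -1.26 to -0.61 and from 0.49 to 1.19, with edgeR adjusted p-values of 0.00236 to 0.0408. With the GC step and a line left out as well, 10 of the 20 were called without OCILY1, 19 without PFEIFFER, 5 without SUDHL4, 6 without TOLEDO and 19 without WSUDLCL2.

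NXF1, which encodes the main export receptor for messenger RNA (chr11:62792123-62806302, minus strand, GRCh38), led the lower genes. In OCILY1, PFEIFFER, SUDHL4, TOLEDO and WSUDLCL2, in this order, NXF1 stood at 168, 105, 176, 286 and 169 CPM with pracinostat and at 230.1, 209.8, 317, 557 and 262 CPM with vorinostat. Vorinostat was the higher in every line, although the groups overlap across lines. The difference of NXF1 was -0.77 ± 0.12 (log2, standard error (SE), n = 5 lines), 1.70-fold higher with vorinostat, with an adjusted p of 0.0994 by edgeR. Without WSUDLCL2 it was -0.81 with an adjusted p of 0.00291 by edgeR. Against DMSO, at 99.2 to 173 CPM, NXF1 rose by 1.15 with vorinostat and by 0.37 with pracinostat on the log2 scale, with edgeR adjusted p-values of 9.23e-06 and 0.0341.

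MXD1 encodes a partner of MAX that represses transcription at sites MYC can bind (chr2:69897688-69942945, plus strand). It stood at 45.3, 13.1, 30.7, 32.0 and 20.4 CPM with pracinostat and at 60.5, 22.9, 62.0, 56.9 and 41.8 CPM with vorinostat, in the same order of lines. The DMSO libraries held 6.64 to 22.3 CPM, so levels ran from DMSO through pracinostat to vorinostat in each of the 5 lines. The difference between the drugs was -0.80 ± 0.13 (log2, SE), with an edgeR adjusted p of 0.0994, and -0.75 with an adjusted p of 0.00534 without WSUDLCL2.

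PER1, a core component of the circadian clock that also responds quickly to many signals (chr17:8140472-8156506, minus strand), stood at 36.7, 21.3, 29.1, 34.9 and 27.8 CPM with pracinostat and at 78.3, 27.4, 58.9, 47.4 and 85.1 CPM with vorinostat. In SUDHL4 and WSUDLCL2 the pracinostat library held about the DMSO level, 29.1 against 29.6 CPM and 27.8 against 29.8 CPM. The difference was -0.90 ± 0.16 with an adjusted p of 0.143 by edgeR, and its size varied from -0.36 in PFEIFFER to -1.60 in WSUDLCL2. Without WSUDLCL2 the difference of PER1 was -0.74, and with the GC trend taken out it was -0.82.

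Among the other lower genes, SESN2 and TP53INP1 are stress genes that p53 can induce. SESN2 differed by -0.65 ± 0.12 and TP53INP1 by -0.65 ± 0.12, both with an edgeR adjusted p of 0.143. TP53INP1 differed by only -0.15 in TOLEDO, against -0.74 to -0.88 in the other 4 lines. SLC12A2, the sodium, potassium and chloride cotransporter, differed by -0.60 ± 0.11. The long noncoding RNA NEAT1, which builds paraspeckles, differed by -0.70 ± 0.13, from 69.5 to 304 CPM with pracinostat and from 144 to 440 CPM with vorinostat. MIR22HG, the host transcript of a microRNA, had the largest fitted difference of the 10, -1.30 ± 0.24. With pracinostat MIR22HG stood at 0.96 to 11.0 CPM, lowest in PFEIFFER and there near the level that a count of 0 allows. With vorinostat it stood at 3.83 to 18.1 CPM. ZSWIM6 and C2CD2L completed the 10, with -0.76 ± 0.14 and -0.68 ± 0.13. Against DMSO, all 10 lower genes were called higher with vorinostat and 6 of them with pracinostat by edgeR. Of all 12904 genes, 22.8% and 19.2% were called higher. With pracinostat the fitted change of the 10 ran from 0.18 to 1.57, above 0 in each. The vorinostat libraries enter both the drug difference and the change of vorinostat against DMSO. High vorinostat values therefore place a gene in this group and raise that change alike.

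The leading higher gene was MED18, a subunit of the head module of Mediator, the complex that links transcription factors to RNA polymerase II (chr1:28329002-28335967, plus strand). MED18 stood at 18.3, 27.9, 28.7, 15.9 and 35.5 CPM with pracinostat and at 8.16, 18.2, 13.3, 7.51 and 11.4 CPM with vorinostat. The pracinostat level was the higher in each line, by 0.61 in PFEIFFER to 1.62 in WSUDLCL2 on the log2 scale. The difference of MED18 was 1.12 ± 0.16 (SE, 95% interval 0.77 to 1.47) with an edgeR adjusted p of 0.0994, and 0.97 with an adjusted p of 0.00534 without WSUDLCL2. Against DMSO, at 25.6 to 45.4 CPM, MED18 fell by 1.48 with vorinostat (edgeR adjusted p of 9.83e-06), while with pracinostat the value was -0.36 (edgeR adjusted p of 0.0874).

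KEAP1 encodes the adaptor that marks NRF2, the regulator of antioxidant genes, for degradation (chr19:10486120-10503741, minus strand). It stood at 30.3, 29.2, 48.3, 26.1 and 33.5 CPM with pracinostat and at 24.1, 20.3, 28.8, 14.9 and 21.7 CPM with vorinostat, below the 80.6 to 129.8 CPM of DMSO in every line. KEAP1 fell against DMSO with both drugs, by 1.49 with pracinostat and by 2.09 with vorinostat (log2), and the difference between them was 0.61 ± 0.12 with an edgeR adjusted p of 0.155. The difference of KEAP1 was 0.60 without WSUDLCL2 and 0.68 with the GC trend taken out. MGAT3, a glycosyltransferase of the Golgi, and ZMYND8, a chromatin reader, also fell with both drugs against DMSO, and their differences between the drugs were 0.61 ± 0.12 and 0.50 ± 0.11.

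Among the remaining higher genes, RPL41P1, with 0.94 ± 0.15, is a processed copy of the ribosomal protein gene RPL41, so its counts may hold reads of its parent. HOXB7, ASB2, FGR and ZNF302 each had at least 1 library near the level that a count of 0 allows. ZNF302 stood at 0.33 and 0.44 CPM in TOLEDO, which gave the sole opposite sign among the 20 genes, and FGR was too low to be tested without WSUDLCL2. ZNF678, a zinc finger gene, stood at 10.7, 10.6, 21.5, 19.8 and 10.1 CPM with pracinostat and at 6.21, 7.00, 11.9, 10.2 and 4.94 CPM with vorinostat, a difference of 0.85 ± 0.16. Of the 10 higher genes, 7 were called lower against DMSO with vorinostat and 3 with pracinostat by edgeR. Of all 12904 genes, 20.8% and 16.9% were called lower. Low vorinostat values place a gene in this group and lower its change against DMSO alike.

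**Figure D3:**
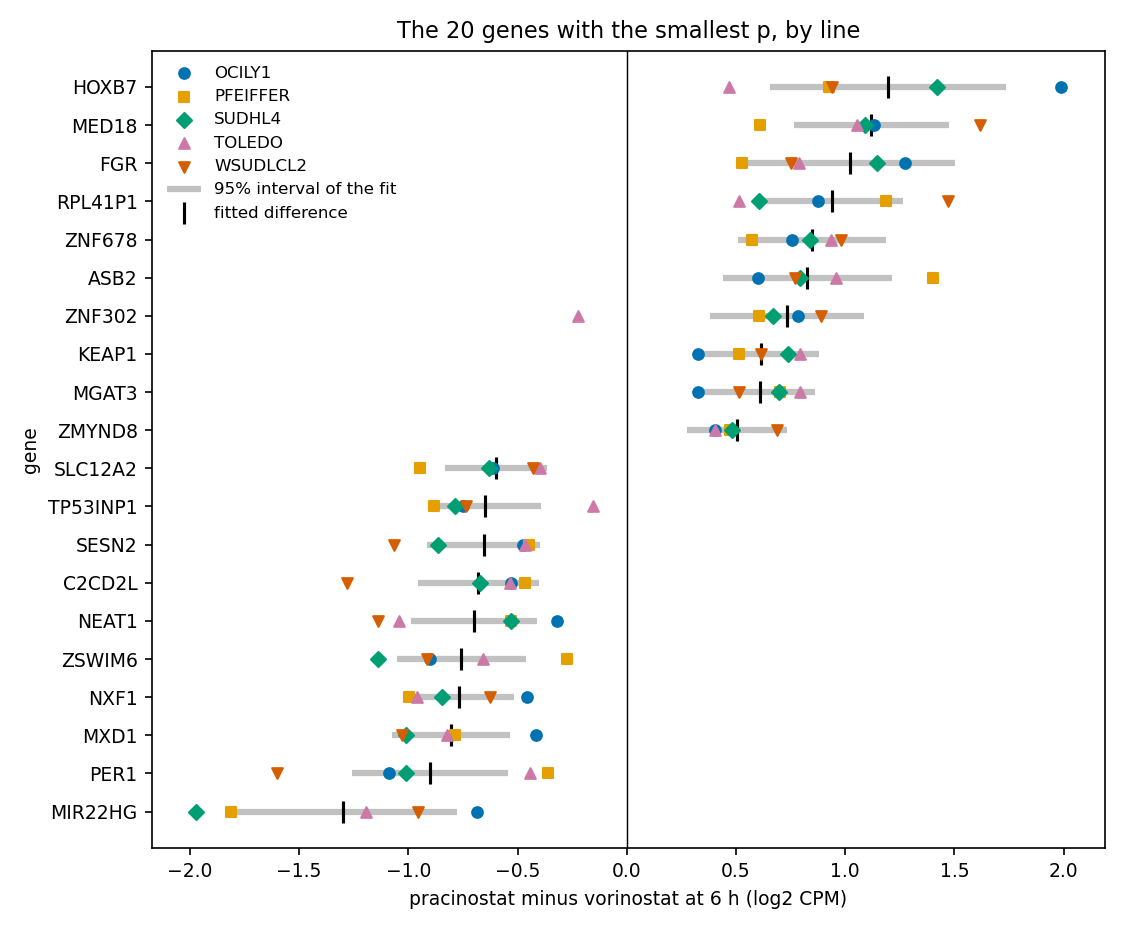
Log2 difference, pracinostat minus vorinostat, of the 20 genes with the smallest p in each line (symbols), with the fitted difference (black tick) and its 95% interval (grey bar). All points of a gene lie on 1 side of 0 except ZNF302, which is at -0.22 in TOLEDO.

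None of the 10 tested HDAC genes passed the test between the drugs. Of the class I genes, which encode the nuclear deacetylases, HDAC1 stood at 224 to 679 CPM with pracinostat and 239 to 660 CPM with vorinostat, a difference of 0.13 with a 95% interval of -0.13 to 0.38. HDAC2 differed by 0.03 (-0.25 to 0.31) and HDAC8 by 0.06 (-0.28 to 0.40). HDAC3, the catalytic subunit of the NCoR and SMRT complexes, was lower with pracinostat in all 5 lines, at 80.2 to 141 CPM against 96.8 to 158 CPM, a difference of -0.25 ± 0.10 with an unadjusted p of 0.0224 and an edgeR adjusted p of 0.315. HDAC4, a class II enzyme, had the difference farthest from 0 of the 10, -0.38 (-0.79 to 0.03), from 0.23 in PFEIFFER to -0.93 in WSUDLCL2. HDAC6, the mainly cytoplasmic class II enzyme, differed by 0.04 (-0.24 to 0.32). HDAC11, the class IV gene, rose against DMSO with both drugs, by 1.88 and 2.03, and differed between them by -0.06 (-0.68 to 0.56), at a low level of 1.75 to 8.97 CPM. In WSUDLCL2 alone the median difference was 0.47 over the 4 class I genes and -0.80 over the 6 class II and IV genes. The fitted medians were 0.05 and -0.04 over all lines, -0.09 and 0.075 without WSUDLCL2, and 0.0069 and -0.05 with the GC trend taken out.

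Of 25 tested genes known to respond to HDAC inhibitors, 16 rose against DMSO with pracinostat and 19 with vorinostat, and none fell, where 19.2% and 22.8% of all 12904 genes rose. CDKN1A, which encodes the cell cycle inhibitor p21, stood at 92.4, 30.8, 21.0, 75.8 and 44.2 CPM with pracinostat and at 124, 26.5, 14.3, 105 and 52.3 CPM with vorinostat, over 8.51 to 15.6 CPM in DMSO. Vorinostat was the higher in OCILY1, TOLEDO and WSUDLCL2 and pracinostat in PFEIFFER and SUDHL4. The difference of CDKN1A was -0.10 with an interval of -0.42 to 0.21. Of the 25 response genes, 20 had a lower fitted level with pracinostat, 7 of them at an unadjusted p under 0.05, and 0 had a higher level at that p. Of all tested genes, 46.9% had a lower fitted level, and 6.46% were lower and 6.55% higher at that p. The median of the response genes was -0.23 over all lines, -0.14 without WSUDLCL2 and -0.235 with the GC trend taken out. Their median in WSUDLCL2 alone was -0.715, against -0.25 to -0.01 in the other lines.

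Within that list, KDM5B, a demethylase of histone H3, was lower with pracinostat in all 5 lines, at 4.03 to 230 CPM against 9.09 to 265 CPM, a difference of -0.45 ± 0.13 (edgeR adjusted p of 0.226), or -0.38 without WSUDLCL2. DHRS2, a dehydrogenase long known to respond to these inhibitors, stood at 4.22, 6.09, 1.75, 1.00 and 1.09 CPM with pracinostat and at 5.86, 29.0, 1.41, 4.13 and 2.14 CPM with vorinostat. Its difference of -1.27 ± 0.35 rested mostly on PFEIFFER and TOLEDO, with -2.19 and -1.76 (edgeR adjusted p of 0.225). HEY1 and RGL1 rose strongly with both drugs against DMSO, by 3.53 and 3.93 with pracinostat and by 3.82 and 4.37 with vorinostat. Between the drugs HEY1 differed by -0.28 (-0.67 to 0.11) and RGL1 by -0.41 (-0.82 to 0.00).

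**Figure D4:**
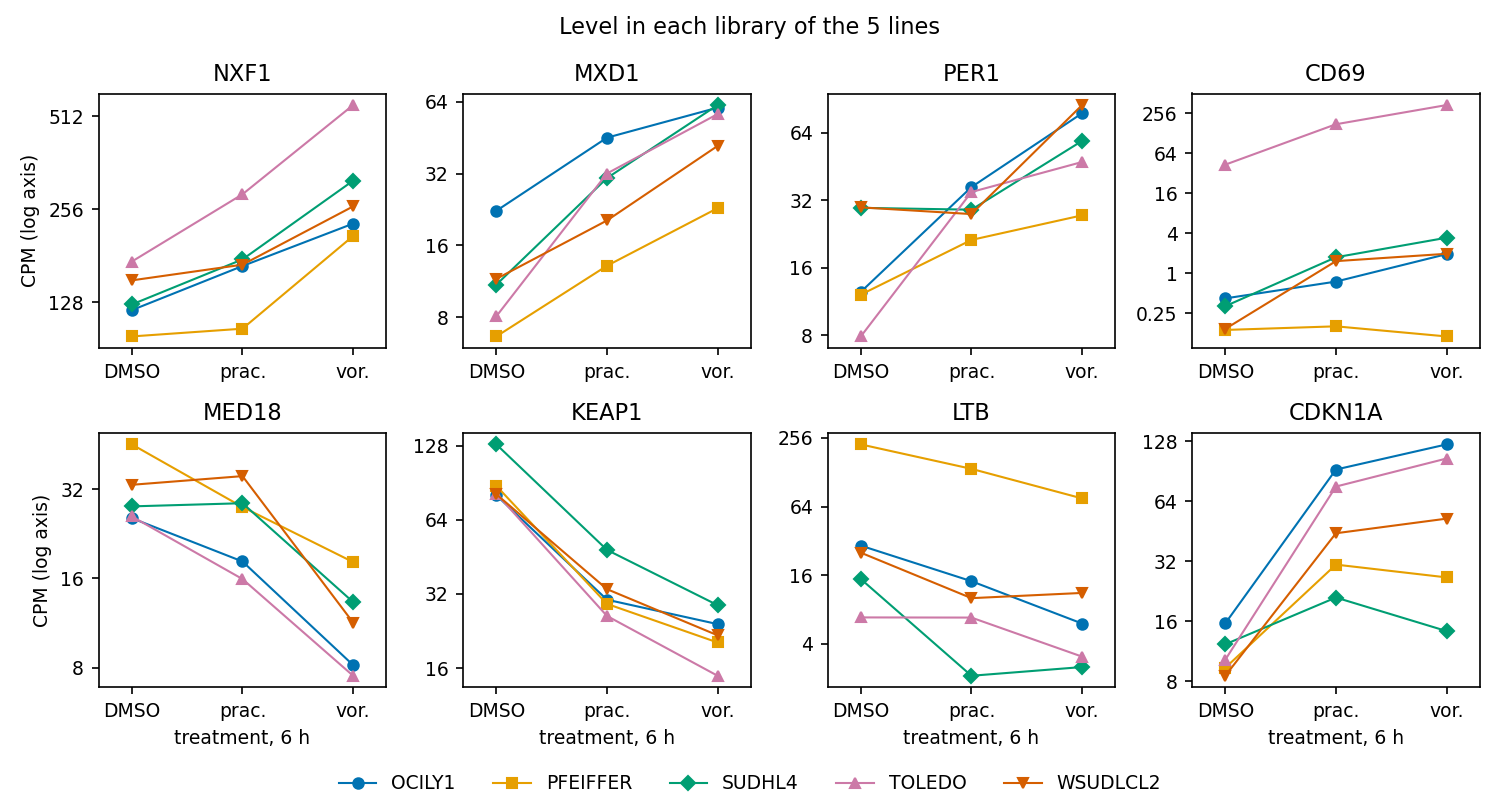
Level (CPM, log axis) of 8 genes in the DMSO, pracinostat and vorinostat library of each of the 5 lines, joined by line. NXF1, MXD1 and MED18 lie between DMSO and vorinostat or near DMSO with pracinostat in most lines, while CDKN1A rises with both drugs and the order of the drugs differs between lines.

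The other genes were read through 37 lists of pathways and cell types. No member of any list passed the test over all 10 libraries, so the counts that follow are those at an unadjusted p under 0.05, to be read against the 6.55% and 6.46% of all tested genes, and medians are to be read against the 0.02 of all genes. Genes of the G2 and M phases, which cells use to divide, had the highest median of the lists with at least 10 tested members, 0.30: 30 of 31 had a higher fitted level with pracinostat, 11 at that p. The medians of this list by line were 0.35 in OCILY1, -0.36 in PFEIFFER, 0.81 in SUDHL4, 0.09 in TOLEDO and 0.63 in WSUDLCL2, so PFEIFFER went the other way. The fitted median was 0.23 without WSUDLCL2 and 0.26 with the GC trend taken out. CENPE, a kinesin of the kinetochore, stood at 176, 169.7, 226, 169 and 103 CPM with pracinostat and at 110.5, 194, 129, 137 and 53.5 CPM with vorinostat, a difference of 0.51 ± 0.15 with an edgeR adjusted p of 0.245, or 0.40 without WSUDLCL2. AURKA and PLK1, mitotic kinases, differed by 0.46 ± 0.14 and 0.46 ± 0.16. MKI67, the proliferation marker, differed by 0.25 (-0.15 to 0.65). In RNA of whole cultures, fewer cells in a phase and less of its RNA per cell cannot be told apart. Genes of the G1/S phase and DNA replication had a median of 0.02, with 2 of 36 higher and 4 lower at that p, among the latter CCNE1 (-0.34 ± 0.12) and CCNE2 (-0.42 ± 0.13), the E cyclins. This median joined lines of opposite sign: it was -0.27 in OCILY1, -0.25 in PFEIFFER, 0.37 in SUDHL4, 0.06 in TOLEDO and 0.12 in WSUDLCL2. It was 0.0039 without WSUDLCL2 and 0.0069 with the GC trend taken out.

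Genes that act for and against cell death had medians of opposite sign. Of 25 tested pro-apoptotic genes, 19 had a lower fitted level with pracinostat, 7 at an unadjusted p under 0.05, and none a higher level at that p. Their median was -0.08, and -0.10 both without WSUDLCL2 and with the GC trend taken out. BCL2L11, which encodes the BH3-only protein BIM, stood at 253, 578, 162, 243 and 151 CPM with pracinostat and at 348, 687, 249, 311 and 267 CPM with vorinostat. BCL2L11 was lower with pracinostat in each line, by -0.49 ± 0.12 (edgeR adjusted p of 0.190), and was called with the GC trend taken out, at -0.51 with an edgeR adjusted p of 0.0413, but not without WSUDLCL2, at -0.41 with an edgeR adjusted p of 0.0605. APAF1, the core of the apoptosome, differed by -0.41 ± 0.10, BMF, another BH3-only gene, by -0.41 ± 0.12, and PMAIP1, which encodes NOXA, by -0.30 ± 0.11. Of 10 anti-apoptotic genes, 9 had a higher fitted level with pracinostat, 4 at that p, with a median of 0.28, or 0.29 without WSUDLCL2 and 0.27 with the GC trend taken out. These 4 were BIRC2 (0.34 ± 0.11), BCL2L1, which encodes BCL-XL (0.34 ± 0.12), XIAP (0.31 ± 0.11) and BIRC5 (0.40 ± 0.16). MCL1 was the exception, with -0.24 (-0.50 to 0.01), and BCL2 differed by 0.11 (-0.15 to 0.37).

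**Figure D5:**
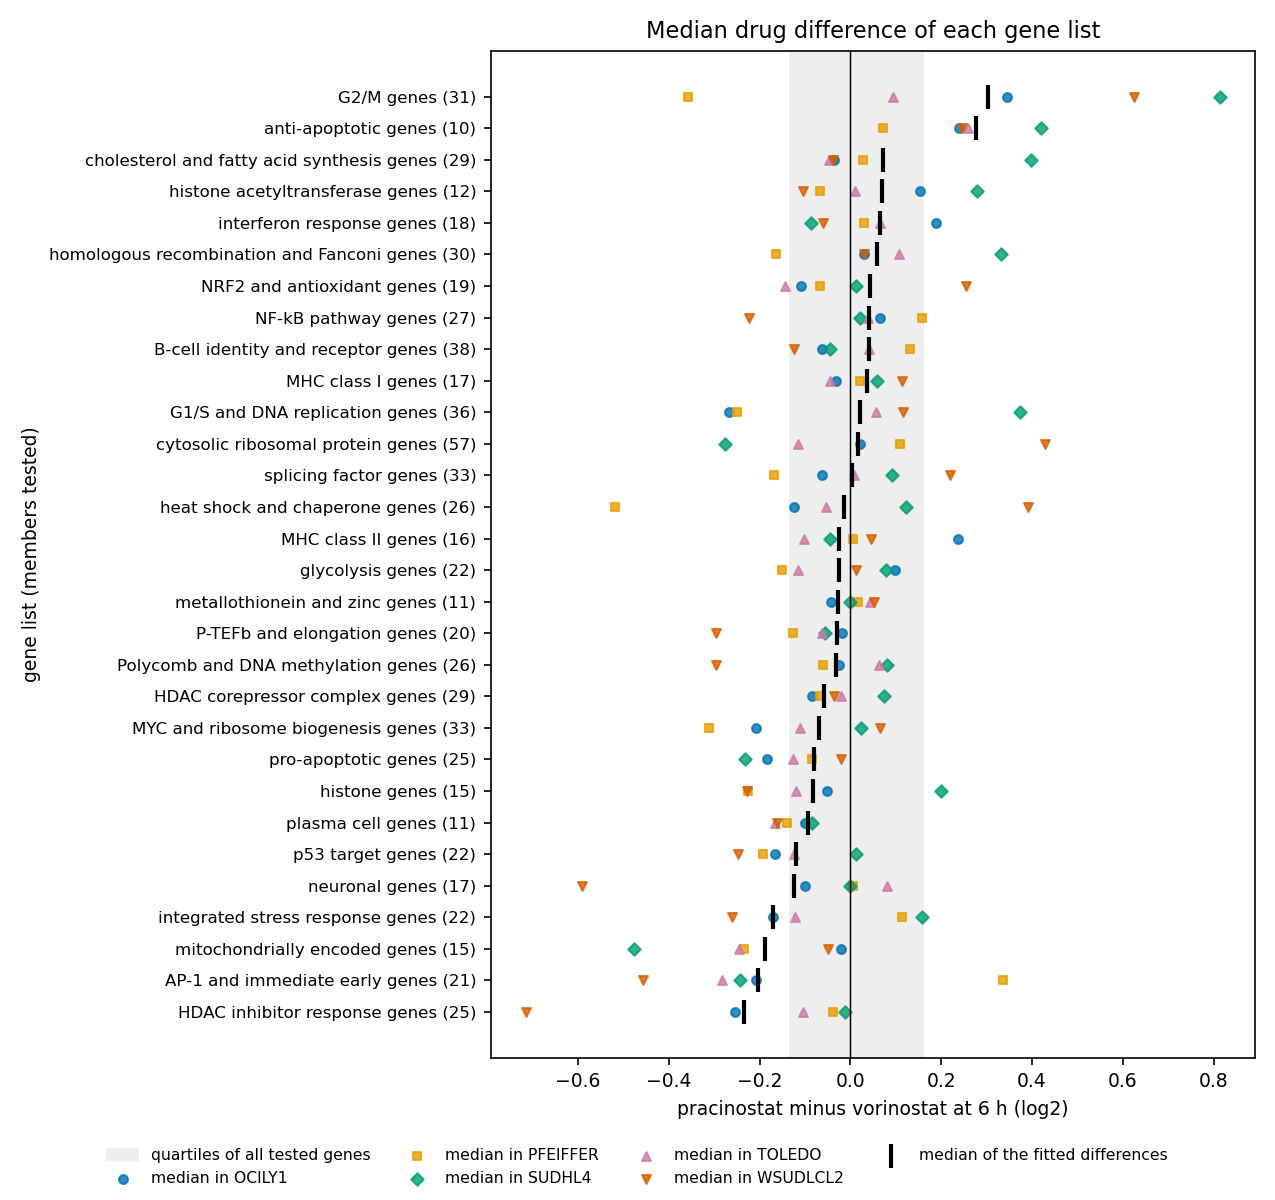
Median log2 difference, pracinostat minus vorinostat, of each gene list with at least 10 tested members: the fitted value over the 5 lines (black tick), the median in each line (symbols) and the quartiles of all tested genes (grey band). The fitted medians run from -0.23 (HDAC inhibitor response genes) to 0.30 (G2/M genes), and in G2/M genes the lines run from -0.36 to 0.81.

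The MYC network and the ribosome biogenesis genes gave 9 of 33 members lower at an unadjusted p under 0.05 and 0 higher, with a median of -0.07, or -0.155 without WSUDLCL2 and -0.08 with the GC trend taken out. Besides MXD1 these were its relatives MXI1 (-0.32 ± 0.11), MNT (-0.47 ± 0.19) and MAX (-0.32 ± 0.10), the nucleolar genes RRP9, RRP12 and POLR1A, and the polyamine genes ODC1 and SRM. The median of the whole list was -0.21 in OCILY1, -0.31 in PFEIFFER and -0.11 in TOLEDO, but 0.02 in SUDHL4 and 0.06 in WSUDLCL2. RRP9 was called without WSUDLCL2, at -0.52 with an edgeR adjusted p of 0.0240, but not with the GC trend taken out, at -0.43 with an edgeR adjusted p of 0.111. MYC itself fell against DMSO with both drugs, by 1.18 with pracinostat and by 1.06 with vorinostat. MYC stood at 287, 114, 227, 109 and 174 CPM with pracinostat and at 473, 119, 207, 86.3 and 184 CPM with vorinostat, a difference of -0.08 (-0.37 to 0.22), with OCILY1 alone far from 0 at -0.72.

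Stress genes gave mixed counts. Of 22 integrated stress response genes, which cells switch on when amino acids or protein folding fail, 6 were lower and 2 higher with pracinostat at an unadjusted p under 0.05, with a median of -0.17, or -0.11 without WSUDLCL2 and -0.155 with the GC trend taken out. By line their median was -0.17 in OCILY1, 0.11 in PFEIFFER, 0.16 in SUDHL4, -0.12 in TOLEDO and -0.26 in WSUDLCL2, so the sign differed between lines. SLC7A5, the large neutral amino acid transporter, stood at 227, 324, 181, 199 and 145 CPM with pracinostat and at 417, 455, 174, 338 and 507 CPM with vorinostat. Its difference was -0.76 ± 0.20 (edgeR adjusted p of 0.225), -0.71 with the GC trend taken out (edgeR adjusted p of 0.0241) and -0.52 without WSUDLCL2 (edgeR adjusted p of 0.0692). ATF3, an immediate stress factor, differed by -0.72 ± 0.26 and DDIT3, which encodes CHOP, by -0.47 ± 0.20. Of 22 p53 target genes, 5 were lower and 0 higher at that p, with a median of -0.12, or -0.11 without WSUDLCL2 and -0.12 with the GC trend taken out. The lower ones were SESN2, TP53INP1, SESN1, PLK3 and TNFRSF10B. Of 26 heat shock and chaperone genes, 1 was lower at that p and the median was -0.01, but the medians by line ran from -0.52 in PFEIFFER to 0.39 in WSUDLCL2. The fitted median was -0.11 without WSUDLCL2 and -0.03 with the GC trend taken out.

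For B-cell and immune genes the counts were near those of all tested genes. Among 38 B-cell identity and receptor genes, 3 were higher and 2 lower at an unadjusted p under 0.05, with a median of 0.04, or 0.03 without WSUDLCL2 and 0.04 with the GC trend taken out. Against DMSO, 23 of the 38 fell with each drug, where 16.9% of all genes fell with pracinostat and 20.8% with vorinostat. TNFRSF17, which encodes BCMA, fell against DMSO with both, with log2 changes of -2.37 for pracinostat and -2.52 for vorinostat, and the drugs differed by 0.17 (-0.27 to 0.60). BCL6, the repressor of germinal centre B cells, differed by -0.18 (-0.41 to 0.05). IRF4, a regulator of activated B cells and plasma cells, was abundant in only 2 lines. It stood at 283 and 349 CPM with pracinostat and at 463 and 551 CPM with vorinostat in PFEIFFER and TOLEDO, and at most at 13.0 CPM elsewhere. IRF4 differed by -0.61 ± 0.16 (edgeR adjusted p of 0.225) and was called without WSUDLCL2, at -0.71 with an edgeR adjusted p of 0.0168, and with the GC trend taken out, at -0.60 with an edgeR adjusted p of 0.0489.

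CD69, an early activation marker, was likewise high in TOLEDO alone, at 175 CPM with pracinostat and 341 CPM with vorinostat over 43.3 CPM in DMSO, and at most at 3.45 CPM in the other lines. CD69 differed by -0.93 ± 0.18 (edgeR adjusted p of 0.1495) and by -0.98 without WSUDLCL2 (edgeR adjusted p of 0.00590), and by -0.99 with the GC trend taken out (edgeR adjusted p of 0.0146). By line the difference of CD69 was -1.08 in OCILY1, 0.15 in PFEIFFER, -0.86 in SUDHL4, -0.96 in TOLEDO and -0.31 in WSUDLCL2. The PFEIFFER libraries, with the opposite sign, held less than the level that a count of 0 allows. LTB, a cytokine of the lymphotoxin family, stood at 14.2, 137, 2.10, 6.80 and 10.1 CPM with pracinostat and at 6.03, 75.4, 2.51, 3.09 and 11.2 CPM with vorinostat. LTB was higher with pracinostat in OCILY1, PFEIFFER and TOLEDO, by 0.68 ± 0.21 over all lines (edgeR adjusted p of 0.258) and by 0.91 without WSUDLCL2 (edgeR adjusted p of 0.0168). With the GC trend taken out LTB was not called, at 0.71 with an edgeR adjusted p of 0.0519. SOD2, the mitochondrial superoxide dismutase, differed by -0.54 ± 0.13 and was called both without WSUDLCL2 and with the GC trend taken out, at -0.65 and -0.57. Of 16 MHC class II genes 1 was higher and 0 lower at an unadjusted p under 0.05, and of 17 MHC class I genes 1 was higher and 0 lower.

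Chromatin regulators other than the HDACs gave 2 acetyltransferase genes of 12 higher with pracinostat at an unadjusted p under 0.05. KAT6B fell against DMSO with both drugs and stood at 36.1, 34.1, 30.3, 14.6 and 19.0 CPM with pracinostat and at 22.4, 27.2, 20.8, 10.9 and 15.1 CPM with vorinostat, a difference of 0.48 ± 0.13 (edgeR adjusted p of 0.225). CREBBP differed by 0.07 (-0.21 to 0.35), EP300 by -0.04 (-0.35 to 0.26) and EZH2, the catalytic subunit of Polycomb complex PRC2, by -0.01 (-0.22 to 0.20). Of 29 genes of HDAC corepressor complexes 1 was lower at that p, SAP130 of the SIN3 complex, at -0.41 ± 0.10. SAP130 was called with the GC trend taken out, at -0.40 with an edgeR adjusted p of 0.0462, but not without WSUDLCL2, at -0.37 with an edgeR adjusted p of 0.0605. Of 57 cytosolic ribosomal protein genes none reached that p, and their fitted differences lay between -0.13 and 0.16. Their medians by line nevertheless ran from -0.28 in SUDHL4 to 0.43 in WSUDLCL2. The fitted median was 0.02 over all lines and with the GC trend taken out, and -0.06 without WSUDLCL2.

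Line by line, few genes were 2-fold apart between the drugs outside WSUDLCL2. Of the 10488 genes, 93 were 2-fold apart in OCILY1 (56 higher with pracinostat, 37 lower), 169 in PFEIFFER (132 and 37), 241 in SUDHL4 (130 and 111) and 109 in TOLEDO (81 and 28). In WSUDLCL2 there were 989 (196 and 793), and the 793 lower genes had a median GC content of 61.7%, against 48.2% for all genes and 43.9% for the 196 higher ones. Each line has 1 library per drug, so these counts have no replicate check within the line. Against DMSO, the genes 2-fold changed in the line numbered 1276 to 1967 with pracinostat and 1725 to 2210 with vorinostat. They were more numerous with vorinostat in OCILY1, PFEIFFER, SUDHL4 and TOLEDO, and about equal in WSUDLCL2, at 1967 and 1961.

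Genes that respond to pracinostat were also picked in SUDHL6, whose libraries are not among the 10 of the drug difference used here. There, 510 genes were at least 2-fold higher with pracinostat than with DMSO at 6 h, 489 of them tested here, and 729 at least 2-fold lower, 684 tested. The genes raised in SUDHL6 had a median drug difference of -0.05 in the other 5 lines, and 57.3% of them had a lower fitted level with pracinostat, against 46.9% of all tested genes. The genes lowered in SUDHL6 had a median of 0.11, and 67.7% had a higher fitted level with pracinostat. By line, the medians of the lowered genes were 0.09, 0.23, 0.14, 0.19 and -0.21 in the order above, so WSUDLCL2 had the opposite sign, and without it the fitted median was 0.18, while with the GC trend taken out it was 0.12. The medians of the raised genes were between -0.09 and -0.02 in all 5 lines, and their fitted median was -0.04 without WSUDLCL2 and -0.055 with the GC trend taken out.

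Transcripts of the mitochondrial genome, which encode subunits of the respiratory chain and its ribosomal RNAs, took 10.2%, 5.30%, 9.15%, 6.93% and 9.71% of the counts with pracinostat and 10.1%, 5.43%, 11.8%, 8.07% and 10.2% with vorinostat. The share was lower with pracinostat in 4 of 5 lines, by 0.86 ± 1.10 percentage points on average (SD, n = 5), which an exact paired permutation test put at p = 0.125, two-sided, where 5 pairs cannot give less than 0.0625. The average rested largely on SUDHL4, without which it was -0.41 percentage points. All 15 tested mitochondrial genes had a lower fitted level with pracinostat, 4 at an unadjusted p under 0.05, with a median of -0.19, or -0.26 without WSUDLCL2 and -0.23 with the GC trend taken out, and MT-ATP8 had the smallest p (-0.38 ± 0.13). SUDHL4 had the largest gap, with a median of -0.48 over these genes, and OCILY1 the smallest, with -0.02.

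At 14 days, where the same 5 lines have a library of each drug, 0 of 12709 genes (0%) were called between the drugs by edgeR with the line as block. The labels of that time give each drug its own solvent control, DMSOP or DMSOV, and whether the cultures were run together is not stated. Of the 20 genes named above, 18 had the same sign as at 6 h, with edgeR adjusted p-values of 0.475 to 0.960. The share of all tested genes with the same sign at both times was not computed, so no conclusion is drawn from this count. NEAT1 differed by -0.81 ± 0.26 and FGR by 0.91 ± 0.23 at 14 days, while NXF1 (-0.17 ± 0.14), MED18 (0.20 ± 0.18) and MXD1 (0.07 ± 0.18) had smaller values than at 6 h. RPL41P1 had the opposite sign at 14 days, at -0.73 ± 0.24 against 0.94 at 6 h, and so did MXD1.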

How the data were processed

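The deposited raw table holds whole-number read counts per gene, and the deposited normalized table holds log2 values that follow TMM-scaled CPM (median absolute difference from recomputed values 0.00526 among well-measured genes). The submitters' processing notes name STAR, edgeR and hg38. Versions, annotation and the strand setting of counting are not stated there. Of 18011 genes, 17859 matched GENCODE 29 positions. Genes were tested with edgeR 4.0.16 (R 4.3.3; TMM, filterByExpr with minimum count 10, robust quasi-likelihood, cell line as block), against limma 3.58.1 and DESeq2 1.42.0. Pairs come from the same cell line: deviations from the drug means correlated at 0.76 to 0.95 within a line. Intervals are 95%. Levels are CPM over the 15 libraries of the 5 lines at 6 h, DMSO included, and line differences use log2 CPM with a prior count of 2. The GC trend was a loess curve of each library's deviation from the mean of its line's pair, that is, the trend of the drug difference in that line. It and the fits that combine it with a line left out were added after the data had been seen, and its estimation is not counted in the degrees of freedom. P-values measure spread between lines, which may be technical in part. The pipeline was tested on simulated counts that held no GC trend between the drugs and no outlying line. That test therefore does not cover the removal of such a trend or the effect of such a line. Members, lists and tests were chosen with earlier results of these data known. Named genes are the 10 smallest p in each direction (since fewer than 10 were called) and a fixed set of which 27 are reported here. CD69, IRF4, DHRS2, SLC7A5, SOD2, LTB, CENPE, SAP130 and members of the lists given by value were chosen after their values were seen.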

Additional observations from a re-analysis of the deposited data

Results flagged for a closer look

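Of 60 results checked for a line far from the other 4, 7 had such a line by Dixon's criterion, which chance meets in about 1 in 20. The SD of the log2 drug difference was 0.613 in WSUDLCL2, against 0.309 to 0.395 in the other lines, and 793 genes were at least 2-fold lower with pracinostat there, against 28 to 111. HDAC2 differed by 0.595 in WSUDLCL2 and by -0.19 to -0.02 elsewhere. C2CD2L differed by -1.28 in WSUDLCL2 and by -0.67 to -0.47 elsewhere. ZMYND8 differed by 0.687 in WSUDLCL2 and by 0.40 to 0.48 elsewhere. TP53INP1 differed by -0.153 in TOLEDO and by -0.88 to -0.74 elsewhere. ZNF302 differed by -0.225 in TOLEDO, where both libraries held about the level that a count of 0 allows, and by 0.61 to 0.89 elsewhere.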

How the results depend on the processing

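The count of 0 called genes held with RLE factors, library totals, a stricter filter, limma voom, limma on the deposited values, the 15 libraries with DMSO, a 1.5-fold limit and without the replicate block (0 genes called without the cell line as block). It moved to 12 genes with no filter (2 higher with pracinostat, 10 lower), 42 with DESeq2 (3 and 39) and 2 with all 17 libraries of 6 h (1 and 1: MED18 and NXF1). Leaving out a line gave 0 to 85 genes (0 to 20 higher, 0 to 65 lower), all from the fit without WSUDLCL2. The GC trend taken out gave 100 genes (21 and 79), and with a line left out as well 6 to 193 (2 to 63 higher, 4 to 139 lower): 13 without OCILY1, 193 without PFEIFFER, 7 without SUDHL4, 6 without TOLEDO and 178 without WSUDLCL2. The cause was not tested. A 3-fold limit left 9 genes apart in OCILY1, 18 in PFEIFFER, 42 in SUDHL4, 15 in TOLEDO and 243 in WSUDLCL2. Without a line the difference in mitochondrial share ran from -1.10 (without OCILY1) to -0.414 (without SUDHL4) percentage points, and a 4-fold limit in SUDHL6 kept both signs.

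Of 915 values of 54 genes under 17 alternatives, 892 kept their direction and 23, of 13 genes, did not, most of them of genes near 0. The 20 genes with the smallest p kept their direction in these fits and in the 5 with the GC step and a line left out, 19 of them tested without OCILY1 and without WSUDLCL2, and with 1 sign in every line that is largely set in advance. With each line left out in turn, the log2 difference ran from -0.12 to 0.079 for HDAC2, -0.058 to 0.10 for HDAC6, -0.061 to 0.14 for HDAC8, -0.34 to 0.20 for HDAC11, -0.24 to 0.0051 for CDKN1A, -0.17 to 0.083 for MYC, -0.0065 to 0.17 for BCL2, -0.047 to 0.33 for TNFRSF17, -0.14 to 0.0010 for TXNIP, -0.066 to 0.029 for EZH2, -0.0086 to 0.20 for CREBBP, -0.17 to 0.089 for EP300 and -0.053 to 0.14 for ACTB. Without the block of cell line it was 0.014 for HDAC11, -0.020 for TNFRSF17, 0.0019 for EZH2 and -0.058 for ACTB. Over 17 libraries it was -0.0050 for HDAC6 and 0.036 for EZH2. With the GC trend taken out it was -0.022 for HDAC2. With library totals it was 0.0061 for EZH2. Depth limits low genes most.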
